A study of Mus musculus with 4 samples.

Results

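Gene expression at 6 weeks of age was compared between a pool of livers from Pnpla7-/- mice (KO) and a pool from Pnpla7+/+ mice (WT), all of the C57BL/6N strain. Each pool held equal amounts of total RNA from 5 animals and was read on 1 Cy3 array, so no ratio could be checked against replicates and genes are picked out by how far apart the 2 arrays lie. A pair of arrays made the same way from 3-week-old mice of both genotypes gives values to set beside those at 6 weeks. Sex, diet, feeding state, time of death and the part of Pnpla7 that was removed are not given in the sources used here. Genes were compared where their probe lay well above background on both 6-week arrays and its spots carried no outlier flag, which held for 19401 of 30026 genes. Another 1080 genes were well above background in WT only, 903 in KO only and 8642 on neither 6-week array. A signal below is the background-corrected intensity divided by the 75th percentile of its array, and a log2 ratio is KO over WT at 6 weeks unless another age is named.

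PNPLA7 is a lysophospholipase of the patatin-like family that removes the remaining fatty acid of lysophosphatidylcholine and leaves glycerophosphocholine. Glycerophosphodiesterases then release choline, which hepatocytes either use again for phosphatidylcholine or oxidise to betaine. Betaine hands a methyl group to homocysteine, so that choline set free from membranes can feed the methionine cycle and S-adenosylmethionine. The title of the series places PNPLA7 in this route.

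The 2 arrays detected similar numbers of spots, but the KO array had the wider spread between spots and the higher floor. Outlier flags fell on 209 spots in WT and 252 in KO. The lowest signal well above background was 0.0102 in WT and 0.0135 in KO. Of 43020 spots, 29466 were well above background in WT and 29203 in KO, and none was saturated. The spread between repeated spots of a probe, as a median SD of log2 signal, was 0.0646 in WT over 285 probes and 0.0991 in KO over 277. These give a log2 ratio an SD of 0.118, which covers spot-to-spot error and leaves out differences between pools. The tissue label fits its markers: all 17 hepatocyte identity genes were well above background on both arrays, with a summed signal of 2009 in WT and 2219 in KO and a median log2 ratio of 0.03. Alb, serum albumin, had a signal of 338 in WT and 382 in KO.

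Pnpla7 was read by 1 probe, which lies at chr2:24908961-24909192 of build mm9 and is printed because it is the check on the genotype.
Pnpla7 probe: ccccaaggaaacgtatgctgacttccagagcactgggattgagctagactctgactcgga
Its signal was 9.65 in WT and 4.42 in KO, a log2 ratio of -1.13, after 7.54 and 6.70 at 3 weeks. Whether this stretch lies in the deleted part is not known here, so the probe neither shows nor excludes loss of the gene, and each direction below rests on the labels. Within 1000 kb on either side, 46 other genes were measured, with a median log2 ratio of -0.21. Abca2, a lipid transporter of the ABC family, at -1.34 and Ptgds, a prostaglandin D synthase, at -1.14 were at least 2-fold lower. Ehmt1, a histone methyltransferase, was the only one of the 46 at least 2-fold higher, at 1.26, and its brightest probe holds the sequence repeat described next.

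Over all 19401 genes the median log2 ratio was 0.05, and 90% of genes lay between -0.80 and 0.89. In KO 803 genes (4.14%) lay 2-fold or more above WT and 614 (3.16%) 2-fold or more below, 7.3% in either direction, and these are called higher and lower from here on. At 3 weeks, where 19578 genes could be compared, these counts were 279 (1.43%) and 281 (1.44%), 2.86% in either direction, and 90% of genes lay between -0.51 and 0.42. The spread was therefore wider at 6 weeks in both directions, a difference that has no replicate to test it. At 4-fold the 6-week counts were 167 and 112, at 8-fold 70 and 29, and at 16-fold 32 and 9. The genes nearest the 2-fold limit had log2 ratios of 1.0008 and 0.99998 on the higher side and -1.0001 and -0.99985 on the lower. Of genes above the 75th percentile on 1 array or both, 254 of 8512 (2.98%) were higher and 166 (1.95%) lower. Over 5 equal groups by mean signal, the median log2 ratio was 0.09 in the dimmest, 0.01 in the middle and 0.12 in the brightest. All 24 measured ribosomal protein genes lay above 0, with a median of 0.22, as did 27 of 30 respiratory chain genes, with a median of 0.18. Medians of lists of bright genes are to be read against these values as well.

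A repeat in the probes moved with the higher calls. Of 25186 probes well above background on both arrays, 1000 (3.97%) were higher and 767 (3.05%) lower. Among the 137 probes that hold the run GTGTGTGTGT, 85 were higher (62.0%) and 0 lower, with a median log2 ratio of 1.12. Their median signal was 9.13 in WT and 21.8 in KO at 6 weeks, against 13.3 and 17.7 at 3 weeks. The 68 probes with the complementary run ACACACACAC went the other way, with a median of -0.65, 0 higher and 3 lower. Runs of the same length of AG, CT or AT, held by 30, 31 and 18 probes, had medians of 0.19, 0.10 and -0.01. A probe of this kind can read any transcript that carries the repeat, so a ratio from it is not tied to the gene it is named for. At the level of genes, 81 of the 803 higher genes (10.1%) and 74 of the 254 bright ones (29.1%) were read by a GT-run probe. Without them 722 were higher and 614 lower. Ung, a uracil-DNA glycosylase, is an example: its signal was 44.7 in WT and 97.5 in KO through such a probe. Of the members of the gene lists used here, Cyp2u1, Hemgn, Ppp1r3b and Slc1a4 were read this way, and Slc1a4, at 1.26, was the only one of the 4 past 2-fold. What the repeat signal comes from was not tested.

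**Figure D1:**
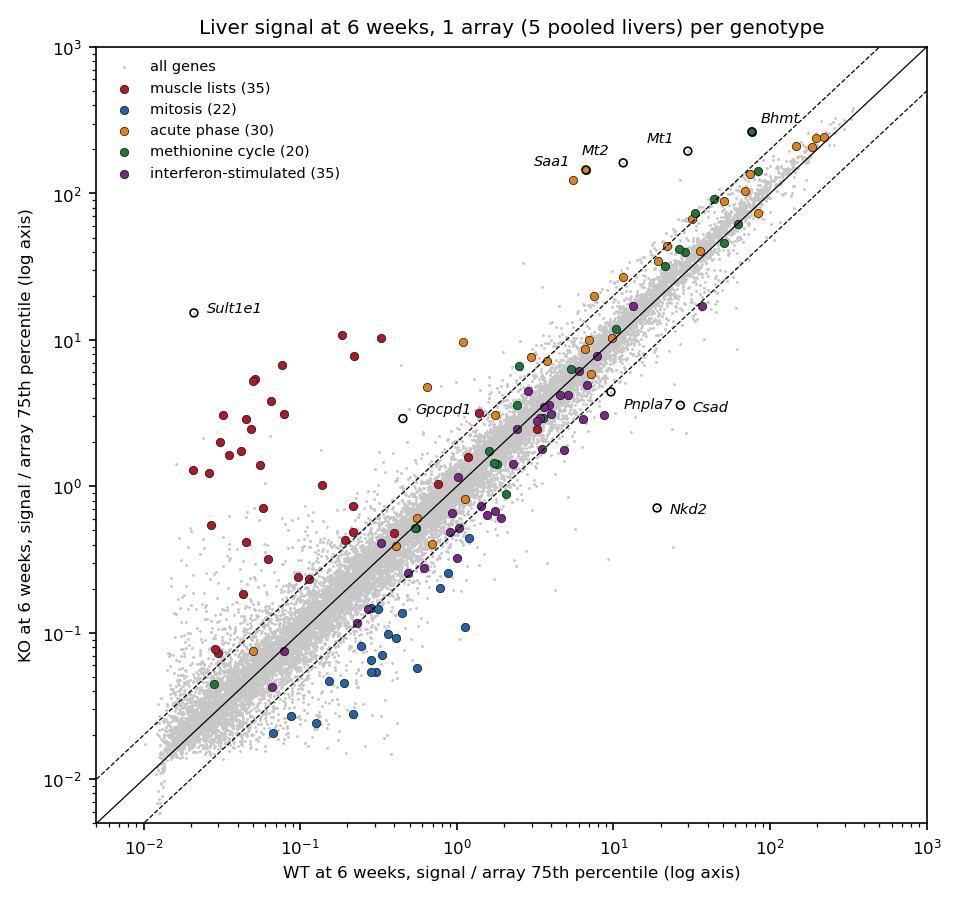
Signal of each gene in KO (vertical) against WT (horizontal) at 6 weeks, both divided by the 75th percentile of the array, on log axes, with 1 point a gene and dashed lines at 2-fold. Most muscle list genes lie above the upper line, many of them far above, and most mitosis genes below the lower line. Sult1e1 (0.0210 in WT, 15.3 in KO) and Nkd2 (19 and 0.713) stand farthest from the diagonal among the labelled genes.

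Some ratios came from a KO array that stood apart and others from the WT array. Taking the 699 higher genes that all 4 arrays measured above background, the KO array at 6 weeks lay at least 2-fold above each of the other 3 arrays for 230, and the WT array at 6 weeks lay at least 2-fold below the other 3 for 106. Of the 573 lower genes, KO at 6 weeks stood 2-fold below the other 3 for 264 and WT at 6 weeks 2-fold above them for 102. At 3 weeks 77 of the 699 were higher as well, and 27 of the 573 lower. A second probe of the same gene was measured for 128 of the 803 higher genes and had the same sign for 111, and for 106 of the 614 lower genes and had the same sign for 87.

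The genes of choline release moved apart from one another. Gpcpd1, which splits glycerophosphocholine into choline and glycerol phosphate and so acts on the product of PNPLA7, had a signal of 0.453 in WT and 2.90 in KO. Its log2 ratio of 2.68 was the highest of the list, and KO at 6 weeks was far above the 3-week arrays at 0.321 and 0.518. Enpp2, autotaxin, which frees choline from lysophosphatidylcholine outside the cell, stood at 4.53 in WT and 10.6 in KO, a log2 ratio of 1.23. Here the WT array at 6 weeks was the low one, since the 3-week arrays stood at 10.2 and 12.6. Pnpla8, a calcium-independent phospholipase named with PNPLA7 in the title of the series, had signals of 0.104 and 0.140 and a log2 ratio of 0.43. Pnpla6, the closest relative of Pnpla7, was level at 1.98 and 1.96. The lysophospholipases Lypla1 and Lypla2 had log2 ratios of 0.19 and -0.02, and Gde1, a glycerophosphodiesterase, one of 0.66. Pla2g6 and Gdpd3 were both at -0.84, below WT but inside 2-fold. In all, 2 of the 17 measured members were at least 2-fold higher and 1, Pnpla7, lower, with a median of -0.02. The remaining 2 members of the list, Enpp6 and Plb1, were not well above background on either array.

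Choline uptake and phosphatidylcholine synthesis stayed close to WT apart from its entry step. Chka, choline kinase alpha, which commits choline to phosphatidylcholine, had a signal of 1.97 in WT and 0.733 in KO. Its log2 ratio was -1.43, a second probe gave -1.45, and the 3-week arrays at 1.55 and 1.66 lay with the WT array at 6 weeks. The kinase of the beta type, Chkb, stood at 4.02 and 4.10. The later steps of the pathway, Pcyt1a, Chpt1 and Cept1, had log2 ratios of 0.23, 0.58 and -0.21. A second probe of Chpt1 gave -0.55, so its direction is not settled. Pemt, which makes phosphatidylcholine from phosphatidylethanolamine by methylation, had 56.4 in WT and 53 in KO. Of 18 measured members 0 were at least 2-fold higher and 1 lower, and the median was -0.09. Lpcat2 was well above background in WT only, and Pcyt1b and Lpcat4 on neither array.

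Several betaine and methionine genes were higher in KO. Bhmt, which passes the methyl group of betaine to homocysteine, had a signal of 76.6 in WT and 264 in KO, a log2 ratio of 1.78. The WT array at 6 weeks was low here, since the 3-week arrays stood at 190 and 170, and a second probe gave 1.65. Mat1a, the liver enzyme that makes S-adenosylmethionine, had 43.9 and 92.4, a log2 ratio of 1.07. Ahcy, which clears S-adenosylhomocysteine, had 33.4 and 73.4, a log2 ratio of 1.14. Nnmt, which spends methyl groups on nicotinamide, had 2.49 and 6.60, a log2 ratio of 1.40, after 6.75 and 8.39 at 3 weeks. Gnmt, which methylates glycine, was at 83.3 and 143, a log2 ratio of 0.78, and Gamt, which makes creatine, at 50.7 and 46.2, a log2 ratio of -0.13. Dmgdh and Sardh, which strip the remaining methyl groups after Bhmt has acted, were at 0.68 and 0.58. Chdh and Aldh7a1, which oxidise choline to betaine, were at -0.28 and -0.01, and Mtr, the folate-dependent methionine synthase, at -0.07. Of 20 measured members 4 were at least 2-fold higher and 1 lower, and 13 lay above 0. The median was 0.35 against 0.05 over all genes, 0.22 for ribosomal protein genes and -0.01 for the same list at 3 weeks. Under quantile normalization Mat1a and Ahcy had 0.85 and 0.92 and lost their calls.

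Folate and sulfur genes adjoining the cycle were mixed. Slc19a1, the reduced folate carrier, had signals of 1.34 and 3.08, a log2 ratio of 1.21, although a second probe gave 0.59. Folr1, a folate receptor, had 1.62 at signals of 0.0197 and 0.0607, close to the floor of the array. Aldh1l1, Ftcd and Mthfd1, abundant folate enzymes of liver, were at 0.62, 0.51 and 0.50. Folate enzymes counted 2 of 17 higher and 0 lower, with a median of 0.23. In the sulfur branch Csad, which makes the precursor of taurine, had a signal of 26.8 in WT and 3.58 in KO. The log2 ratio of Csad was -2.90, and the 3-week arrays stood between at 13.8 and 9.81. Gclc, the catalytic subunit of glutathione synthesis, had 36.3 and 16, a log2 ratio of -1.18. Cdo1 and Cth, which make cysteine sulfinate and cysteine, leaned the other way at 0.64 and 0.88. Of the 10 measured members 0 were higher and 2 lower, with a median of -0.29, and Bcat1 had a bound of -1.42.

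Genes that respond to amino acid shortage and to cell stress through ATF4 split into opposite groups. Trib3, a pseudokinase that restrains AKT, had a signal of 1.99 in WT and 8.21 in KO, a log2 ratio of 2.05. Ddit4, an inhibitor of mTORC1, had 2.52 and 9.80, a log2 ratio of 1.96. Asns, asparagine synthetase, and Vldlr, a lipoprotein receptor, were at 1.32 and 1.27. Lower in KO were the secreted factors Fgf21 and Gdf15 and the stress protein Nupr1. Fgf21 had 1.82 in WT and 0.467 in KO, a log2 ratio of -1.96, and Gdf15 had 3.13 and 1.03, a log2 ratio of -1.60. In total 4 of 24 were higher and 3 lower, with a median of -0.08. The unfolded protein response counted 0 of 16 in either direction, with log2 ratios between -0.64 and 0.49. The CEBP-ATF element TGATGNAA, searched on both strands of RefSeq promoters of 300 bases (250 before the start of the gene and 50 after), was in the promoters of Asns, Trib3 and Vldlr among the higher genes and of Fgf21 and Nupr1 among the lower. It stood in 3.97% of all 32851 promoters. Such a match describes the sequence and does not show binding.

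Several fasting genes were higher in KO, while most growth hormone genes lay inside 2-fold. Ppargc1a, a coactivator of gluconeogenesis, had a signal of 1.86 in WT and 4.42 in KO, a log2 ratio of 1.25 after 0.98 at 3 weeks. Lpin1, a phosphatidate phosphatase, had signals of 4.31 and 12.2. Got1 was at 1.22, Gpt at 1.01 and Ppp1r3g, a glycogen-targeting subunit, at -1.12, so that 4 of 20 fasting genes were higher and 1 lower, with a median of 0.52. Of the 20, 16 lay above 0 and 4 below, among them Pdk4 at -0.82. Igfbp1, a secreted binding protein that insulin represses, had 47.0 and 108, a log2 ratio of 1.20 after 0.93 at 3 weeks. Igfbp5 was at 1.30. The receptors Ghr and Prlr were at 0.08 and -0.58. Igf1 and Socs2 were at -0.18 and -0.17, and the growth hormone list counted 2 of 20 higher and 0 lower, with a median of -0.05. Amino acid catabolism leaned upwards, with Oat, Gpt2 and Prodh at 1.43, 1.20 and 1.09, 26 of 30 members above 0 and a median of 0.39. That median was 0.22 under quantile normalization, and ribosomal protein genes had one of 0.22 without it. Asl, of the urea cycle, and Rhbg, an ammonia carrier, were at 1.19 and 1.08.

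Acute phase genes, which hepatocytes switch on under interleukin-6 and related signals, were higher in KO. Saa1, a serum amyloid apolipoprotein, had a signal of 6.67 in WT and 145 in KO, a log2 ratio of 4.44. Saa2 had 5.55 and 124, a log2 ratio of 4.48, and since these genes are near-identical copies a probe for one may read the other. Lcn2, a siderophore-binding protein, had 1.09 and 9.62, and Orm3, an orosomucoid, 0.642 and 4.79. Serpina3n, Cebpd, Il6ra and Lrg1 were at 1.40, 1.36, 1.24 and 1.06. The fibrinogen genes Fga, Fgb and Fgg were at 0.18, 0.14 and 0.28 and Crp at 0.07. Of 30 members 8 were higher and 0 lower, with a median of 0.59 against 0.05 at 3 weeks. Of 10 measured neutrophil markers 3 were higher, with 4 more at background. Their summed signal of 66.4 in WT and 75.9 in KO was nearly all Csf3r, at 63.5 and 72.9, while Mpo stood at 0.0176 and 0.0143, and their part in the acute phase values was not tested. The site TTNNGCAA of C/EBP factors was in the promoters of Saa1, Saa2, Lcn2 and Orm3, 4 of 7, and in 10.8% of all promoters. The STAT site TTCNNNGAA was in 0 of the 7 and in 8.3% of all.

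Of 18 glucocorticoid-inducible genes 8 were higher and 0 lower, with a median of 0.83. Of these 8, Mt1, Mt2, Lcn2, Per1 and Sult1e1 also stand in other lists, and Fkbp5, Gadd45g and Zbtb16 stand here alone. Fkbp5, a cochaperone of the glucocorticoid receptor, had a signal of 3.86 in WT and 10.6 in KO, a log2 ratio of 1.46. Tsc22d3 was at 0.70, and Sgk1 and Dusp1 at 0.18 and -0.13. Sult1e1, estrogen sulfotransferase, had the largest ratio of all genes, 9.51. It was near the floor in WT at 0.0210, stood at 15.3 in KO and had 0.288 and 0.742 at 3 weeks, so that the WT array at 6 weeks was the lowest of the 4 and the KO array the highest.

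Mt1 and Mt2, the metal-binding metallothioneins of liver, were among the brightest genes that differed. Mt1 had a signal of 29.9 in WT and 195 in KO, a log2 ratio of 2.70, and a second probe gave 3.74. Mt2 had 11.6 and 162, a log2 ratio of 3.81. At 3 weeks Mt1 stood at 111 and 150 and Mt2 at 76.5 and 112, so the WT array at 6 weeks was the low one for both genes. The other 13 measured members of the metallothionein and zinc list lay inside 2-fold. Both promoters hold the metal response element, the site of the zinc sensor MTF1, searched as TGCGCNC and TGCACNC on both strands. They are shown for the density of these matches, in capitals, of which Mt1 has 3 and Mt2 has 4, while 25.7% of all promoters hold at least 1. They are RefSeq sequences of GRCm38.p6, 5′ to 3′ on the strand of the gene, from 250 bases before the start to 30 after it; Mt1 spans chr8:94178839-94179118, plus strand, and Mt2 chr8:94172368-94172647, plus strand.
Mt1: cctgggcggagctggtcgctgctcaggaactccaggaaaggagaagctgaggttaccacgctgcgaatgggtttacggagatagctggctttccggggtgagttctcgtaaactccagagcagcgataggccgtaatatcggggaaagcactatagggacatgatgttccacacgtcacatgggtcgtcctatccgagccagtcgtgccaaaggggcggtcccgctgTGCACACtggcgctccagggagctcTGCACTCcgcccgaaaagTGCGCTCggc
Mt2: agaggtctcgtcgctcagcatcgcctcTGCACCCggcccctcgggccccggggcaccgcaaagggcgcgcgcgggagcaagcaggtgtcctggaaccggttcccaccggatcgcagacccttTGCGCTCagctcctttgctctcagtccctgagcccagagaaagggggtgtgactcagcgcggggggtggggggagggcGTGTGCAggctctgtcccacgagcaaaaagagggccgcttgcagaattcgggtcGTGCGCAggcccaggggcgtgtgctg

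Clock genes of the repressor and the activator arm lay on opposite sides of WT. Ciart, a repressor of the clock, had a signal of 0.0770 in WT and 0.605 in KO, a log2 ratio of 2.97. Per3, Cry2, Per1 and Per2, of the repressor arm, were at 1.94, 1.37, 1.35 and 1.15. Arntl, the activator that drives them, had 0.753 and 0.321, a log2 ratio of -1.23, Clock was at -0.85, and Npas2 was well above background in WT only, with a bound of -1.75. Usp2, Upp2, Dbp and Hlf, clock outputs, were at 2.07, 1.60, 1.18 and 1.14, and Nfil3, which opposes Dbp and Hlf at their sites, had 4.01 and 1.63, a log2 ratio of -1.30. The core list counted 5 of 13 higher and 1 lower and the output list 4 of 12 higher and 1 lower, with medians of 0.84 and 0.88 against -0.12 and -0.09 at 3 weeks. With the mean of all probes Per1 lay inside 2-fold. Time of death was not given, and genotype cannot be told apart from a difference in it. The E-box CACGTG, which ARNTL and CLOCK bind, occurs in 7.15% of all promoters. It was in those of Ciart and Per1 among 5 promoters of the higher core genes and in 0 of 5 promoters of the higher output genes. Each set of 5 promoters belongs to 4 genes. Ciart is printed for its 3 matches, in capitals, from chr3:95882199-95882478, minus strand.
Ciart: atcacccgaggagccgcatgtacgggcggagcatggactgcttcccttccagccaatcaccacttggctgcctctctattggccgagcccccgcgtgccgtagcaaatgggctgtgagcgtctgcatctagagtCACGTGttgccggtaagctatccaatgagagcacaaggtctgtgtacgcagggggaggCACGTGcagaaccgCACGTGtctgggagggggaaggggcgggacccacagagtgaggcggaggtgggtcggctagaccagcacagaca

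Genes of cell division were lower in KO. The mitosis list held 22 genes measured on both arrays, of which 20 were lower and 0 higher, and its median log2 ratio was -1.91. Of the 7 measured on 1 array, 5 more had a bound past 2-fold on the lower side, where 33% of all genes measured in WT only had one, and 3 were at background. Cdc20, an activator of the anaphase-promoting complex, had a signal of 1.13 in WT and 0.110 in KO, a log2 ratio of -3.36. Cenpe, a kinetochore motor, had 0.560 and 0.0576, and Ccnb1, cyclin B1, 0.217 and 0.0278. Ube2c, Kif20a and Tpx2 were at -2.51, -2.39 and -2.39, although a second probe of Tpx2 gave -0.13, and Top2a had a bound of -2.70. At 3 weeks the same list had a median of -0.47 and 0 of 30 past 2-fold in either direction, with summed signals of 29.0 and 22.2. At 6 weeks the sums were 9.48 for WT and 2.80 for KO, so both arrays at 6 weeks lay below both at 3 weeks and KO was the lowest of the 4.

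Replication genes were lower to a smaller extent, 9 of 29 with 1 higher and a median of -0.50. Mcm5, a subunit of the replicative helicase, had a signal of 0.562 in WT and 0.111 in KO, a log2 ratio of -2.33. E2f8, E2f2 and Uhrf1 were at -1.78, -1.72 and -1.41. Rrm2, of ribonucleotide reductase, was the exception at 1.36 and 3.37, a log2 ratio of 1.31. Of G1 regulators Ccnd1, cyclin D1, had 12.9 in WT and 2.36 in KO, a log2 ratio of -2.45. The WT array at 6 weeks was the highest of the 4 for Ccnd1, since the 3-week arrays stood at 4.35 and 4.98. Myc, at signals of 0.130 and 0.303, was at 1.22, and the other 11 regulators were inside 2-fold. In a pool of whole livers, fewer cells of a kind and less RNA per cell cannot be told apart.

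Sites known from late cell cycle genes were searched in these promoters. The cell cycle homology region TTTGAA was in 16 of 22 promoters of the lower mitosis genes (72.7%) against 17.9% of all promoters, and CCAAT, the site of NF-Y, in 16 of 22 against 37.4%. The E2F site TTTNNCGC was in 6 of 10 promoters of the lower replication genes (60%) and 2 of 22 of the mitosis genes (9.09%) against 5.17% of all. CCAAT was in 8 of the 10 replication promoters (80%) and TTTGAA in 3 (30%). Some genes have more than 1 promoter, so the 22 mitosis promoters belong to 21 genes and the 10 replication promoters to 8. Cdc20 and Mcm5 are shown with these letters in capitals, Cdc20 with 1 TTTGAA and 2 CCAAT at chr4:118437314-118437593, minus strand, and Mcm5 with 2 overlapping E2F sites and 3 CCAAT at chr8:75109259-75109538, plus strand.
Cdc20: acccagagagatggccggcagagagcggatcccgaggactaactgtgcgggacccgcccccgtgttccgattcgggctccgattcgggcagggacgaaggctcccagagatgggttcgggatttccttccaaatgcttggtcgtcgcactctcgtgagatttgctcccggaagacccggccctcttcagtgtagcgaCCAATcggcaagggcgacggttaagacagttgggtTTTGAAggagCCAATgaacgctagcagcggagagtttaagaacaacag
Mcm5: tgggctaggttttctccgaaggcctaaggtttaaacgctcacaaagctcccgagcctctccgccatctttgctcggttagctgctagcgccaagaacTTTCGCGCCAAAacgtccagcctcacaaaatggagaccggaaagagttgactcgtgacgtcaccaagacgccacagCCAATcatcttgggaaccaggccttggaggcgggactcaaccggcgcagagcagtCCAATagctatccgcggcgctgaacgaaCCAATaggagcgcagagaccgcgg

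**Figure D2:**
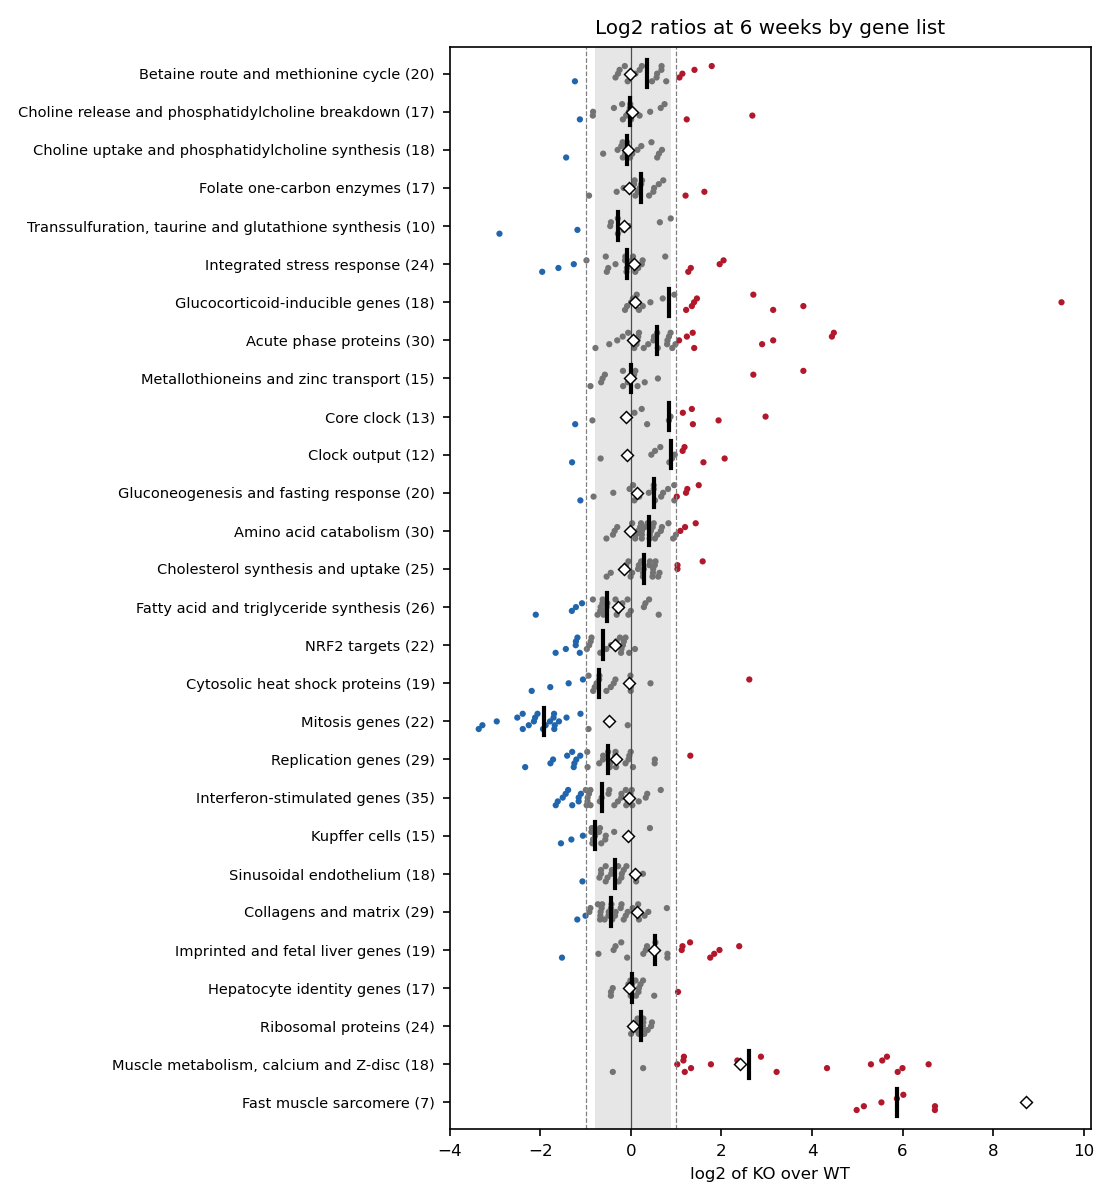
Log2 ratios at 6 weeks of the genes of 28 lists, with the number measured in brackets; dots are genes (red at least 2-fold higher, blue at least 2-fold lower), bars the list's median, diamonds its median at 3 weeks, and the shaded band holds 90% of all genes. The bar of the mitosis list sits at -1.91 with its diamond at -0.47, and the muscle lists stand apart at both ages.

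Lipid genes shifted in different directions by pathway. Fatty acid and triglyceride synthesis had 4 of 26 lower and 0 higher, with a median of -0.53 and 22 of 26 below 0. Pnpla3, a lipid droplet hydrolase under SREBP-1c, had a signal of 2.09 in WT and 0.487 in KO, a log2 ratio of -2.10, after 0.804 and 0.312 at 3 weeks. Elovl5, Me1 and Acly were at -1.30, -1.21 and -1.08. Cholesterol synthesis leaned upwards, with 3 of 25 higher, 0 lower and a median of 0.28, close to the 0.22 of ribosomal protein genes. Its methylsterol oxidase Msmo1 had 9.77 and 29.3, a log2 ratio of 1.58, after 26.9 and 28.1 at 3 weeks. Mvk, mevalonate kinase, was at 1.03. Fatty acid oxidation and PPAR-alpha targets had 3 of 34 lower, Ehhadh, Acot1 and Acaa1b, at -1.31, -1.30 and -1.06, and a median of -0.19. Cyp7a1, the rate-limiting enzyme of bile acid synthesis, had 2.24 in WT and 6.55 in KO, a log2 ratio of 1.55, and the WT array at 6 weeks was the low one, since the 3-week arrays stood at 10.7 and 11. Pltp, the phospholipid transfer protein of plasma, had 2.43 and 0.817, a log2 ratio of -1.57. Plin4 and G0s2, at lipid droplets, were at 1.39 and -1.04.

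NRF2 targets and cytosolic heat shock proteins leaned lower in KO. NRF2 targets counted 6 of 22 lower and 0 higher, with a median of -0.61, after -0.35 at 3 weeks, and 21 of 22 below 0. G6pdx, which supplies NADPH, had a signal of 3.20 in WT and 1.01 in KO, a log2 ratio of -1.66. Osgin1, Aox1, Ephx1, Me1 and Gclc were at -1.44, -1.22, -1.13, -1.21 and -1.18. The glutathione S-transferases were mixed, with 2 of 21 lower, Gstm3 and Gstm4, 1 higher, Mgst2, and a median of -0.10. Gstp1, Gstm1 and Gstp2 were at -0.75, -0.61 and -0.49, and Gsto2 and Gstt3 at 0.85 and 0.74. In all, 11 members lay below 0 and 10 above. Cytosolic heat shock proteins counted 4 of 19 lower, with a median of -0.70. Hspa1a had 0.281 and 0.0616, a log2 ratio of -2.19, Hsph1 had 6.34 and 1.84, a log2 ratio of -1.78, and Hsp90aa1 and Dnajb1 were at -1.38 and -1.06. Cryab, a small heat shock protein that muscle expresses strongly, was the 1 member higher, at 0.795 and 4.87. The heat shock element GAANNTTC was in 3 of 5 promoters of the lower members against 7.86% of all. These 5 promoters belong to 3 genes, and the matches are in 2 of them, Hspa1a and Hsph1.

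Interferon-stimulated genes and macrophage markers were lower together. The 35 interferon-stimulated genes included 9 lower and 0 higher, and their median was -0.65 against -0.05 at 3 weeks. Cxcl9, a chemokine that interferon-gamma induces, had a signal of 1.92 in WT and 0.606 in KO, a log2 ratio of -1.66. Ifi44, Ifi27l2a, Oas1a, Oas2 and Cxcl10 were at -1.61, -1.51, -1.44, -1.39 and -1.30, and Isg15, a ubiquitin-like modifier, had 6.39 and 2.87. Of 15 Kupffer cell markers 14 were below 0 and 3 at least 2-fold lower, with a median of -0.79 and a summed signal of 94.9 in WT and 53.8 in KO. Adgre1, which encodes F4/80, had 2.27 and 0.776, a log2 ratio of -1.54, and Folr2 and Clec4f were at -1.31 and -1.06. Sinusoidal endothelial markers had a median of -0.35 with Cdh5 at -1.07, and collagen and matrix genes one of -0.43 with Col3a1 at -1.18 and Col1a1 just past 2-fold. Whether fewer of these cells were in the KO pool was not tested. The interferon-stimulated response element (GAAA, any 2 bases, GAAA) was in 5 of 7 promoters of the lower genes (71.4%) against 3.44% of all. Isg15 is printed with its 3 overlapping matches in capitals, from chr4:156200789-156201068, minus strand.
Isg15: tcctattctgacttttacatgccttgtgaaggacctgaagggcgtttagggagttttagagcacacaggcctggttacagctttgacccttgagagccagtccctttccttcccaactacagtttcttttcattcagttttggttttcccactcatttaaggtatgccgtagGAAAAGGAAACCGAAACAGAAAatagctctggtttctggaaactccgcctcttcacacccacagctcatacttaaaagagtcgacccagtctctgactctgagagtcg

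Sex-patterned liver genes and drug-metabolising enzymes did not move as one group. Among male-biased genes 5 of 21 were higher and 1 lower, and among female-biased genes 5 of 21 were higher and 7 lower, with medians of 0.18 and -0.10. Cyp3a44 had a signal of 5.69 in WT and 0.510 in KO, a log2 ratio of -3.48, and Cyp3a41b and Cyp3a16 were at -2.28 and -1.13, in a family of near-identical copies whose probes may read one another. Cyp2c55 and Hao2 were at -3.52 and -2.94, Prom1 at -2.88, and A1bg was well above background in WT only, with a bound of -4.42. Cyp4a12b, Cyp4a12a and Cyp2d9, male-biased, were at 2.59, 2.17 and 1.81. Of other sulfotransferases Sult2a7 was at 3.70 and Sult1b1 and Sult1d1 at 1.40 and 1.19, while Sult2a3 and Sult2a2 were at -2.89 and -1.13. Sex was not labelled. Of 5 sex chromosome markers, 1 was well above background on both 6-week arrays, with a log2 ratio of 0.29, and 4 on neither. Whether the pools differed in sex was not tested.

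Imprinted and fetal liver genes, many of which fall in liver after birth, were more often higher than lower in KO, with 13 above 0 and 6 below. Of 19 measured members 7 were higher and 1 lower, with a median of 0.54, and Dlk1, Afp, Spink1 and Tff3 had also been higher at 3 weeks, where the median was 0.50. Gpc3, a glypican of fetal liver, had a signal of 0.0803 in WT and 0.311 in KO, a log2 ratio of 1.96. Afp, alpha-fetoprotein, had 0.147 and 0.528, a log2 ratio of 1.84, and Spink1 was at 1.75. H19 had 0.985 and 5.17, a log2 ratio of 2.39, but a second probe gave -0.67, so its direction is not settled. The imprinted genes were split. Mest was lower, at -1.52, and Sgce and Grb10 were at -0.72 and -0.34. Cdkn1c was at 1.12 and Dlk1 at 1.31, the latter near the floor at signals of 0.0159 and 0.0393. Meg3 was at 0.81, but a second probe gave -3.65. The summed signal of the list was 11.2 in WT and 20.7 in KO at 6 weeks against 113 and 144 at 3 weeks, so both 6-week arrays were far below both 3-week arrays.

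Markers of other tissues differed between the pools. All 7 measured fast-muscle sarcomere genes were higher in KO, with a median log2 ratio of 5.87, and 4 more had a bound past 2-fold on the higher side, where 64.8% of all genes measured in KO only had one. Their summed signal was 0.919 in WT and 43.8 in KO at 6 weeks, and 0.230 and 67.9 at 3 weeks. Of 8 slow-muscle genes 6 were higher and of 18 muscle metabolism, calcium and Z-disc genes 16, with 3 and 11 further bounds. Myh2, a fast myosin, had a signal of 0.0514 in WT and 5.39 in KO, and Ckmt2, the mitochondrial creatine kinase of muscle, 0.0324 and 3.09. Of the 20 genes with a symbol that had the largest positive ratios, 18 are expressed in striated muscle, Sult1e1 led them and Gse1 was the remaining one. Des, which also stands in the stellate cell list, was at 2.35, and Cryab, which stands in the heat shock list, at 2.62. Without the 4 muscle lists 772 genes were higher and 614 lower. Enzymes of the exocrine pancreas were mixed. Ctrb1 and Cel were measured on both arrays and lay close to WT, at 0.14 and 0.22, and Cela1 and Cela2a were at -0.29 and 1.07. Try4, Try5, Cpa1 and Pnlip were well above background in KO and not in WT, with bounds of 3.76, 3.97 and 3.11 for the first 3 and signals in KO up to 0.160, and on the 3-week arrays none was above 0.0129. Where this RNA came from was not tested, and other genes of these tissues among the 803 were not removed.

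A further ranking took bright genes that were level at 3 weeks, list members included. Of 6628 genes above the 75th percentile whose 3-week ratio was inside 1.5-fold, 164 (2.47%) were higher and 98 (1.48%) lower, and 56 of the 164 were read by a GT-run probe, which leaves 108. Nkd2, which restrains Wnt signalling, had the lowest ratio among genes with a symbol. Its signal was 19 in WT and 0.713 in KO, a log2 ratio of -4.74, and the 3-week arrays stood at 14.9 and 17.8, so KO at 6 weeks was the array apart. Cnr2, the cannabinoid receptor of immune cells, had 3.79 and 0.30, a log2 ratio of -3.66, against 2.90 and 2.88 at 3 weeks. Spon2, a secreted matrix protein, had 2.39 and 0.286, and Rad51b, of homologous recombination, 3.03 and 0.687. Aoc2, an amine oxidase, had 61.9 and 8.67, a log2 ratio of -2.84, but a second probe gave 0.35. Higher were Slc43a1, an amino acid transporter, at 0.338 and 1.46, Map2k6, a p38 kinase, at 0.607 and 2.29, and Tgtp2, an interferon-induced GTPase that is not in the interferon list, at 4.53 and 17.1 with a second probe at 1.67. This ranking was added after the values were seen.

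**Figure D3:**
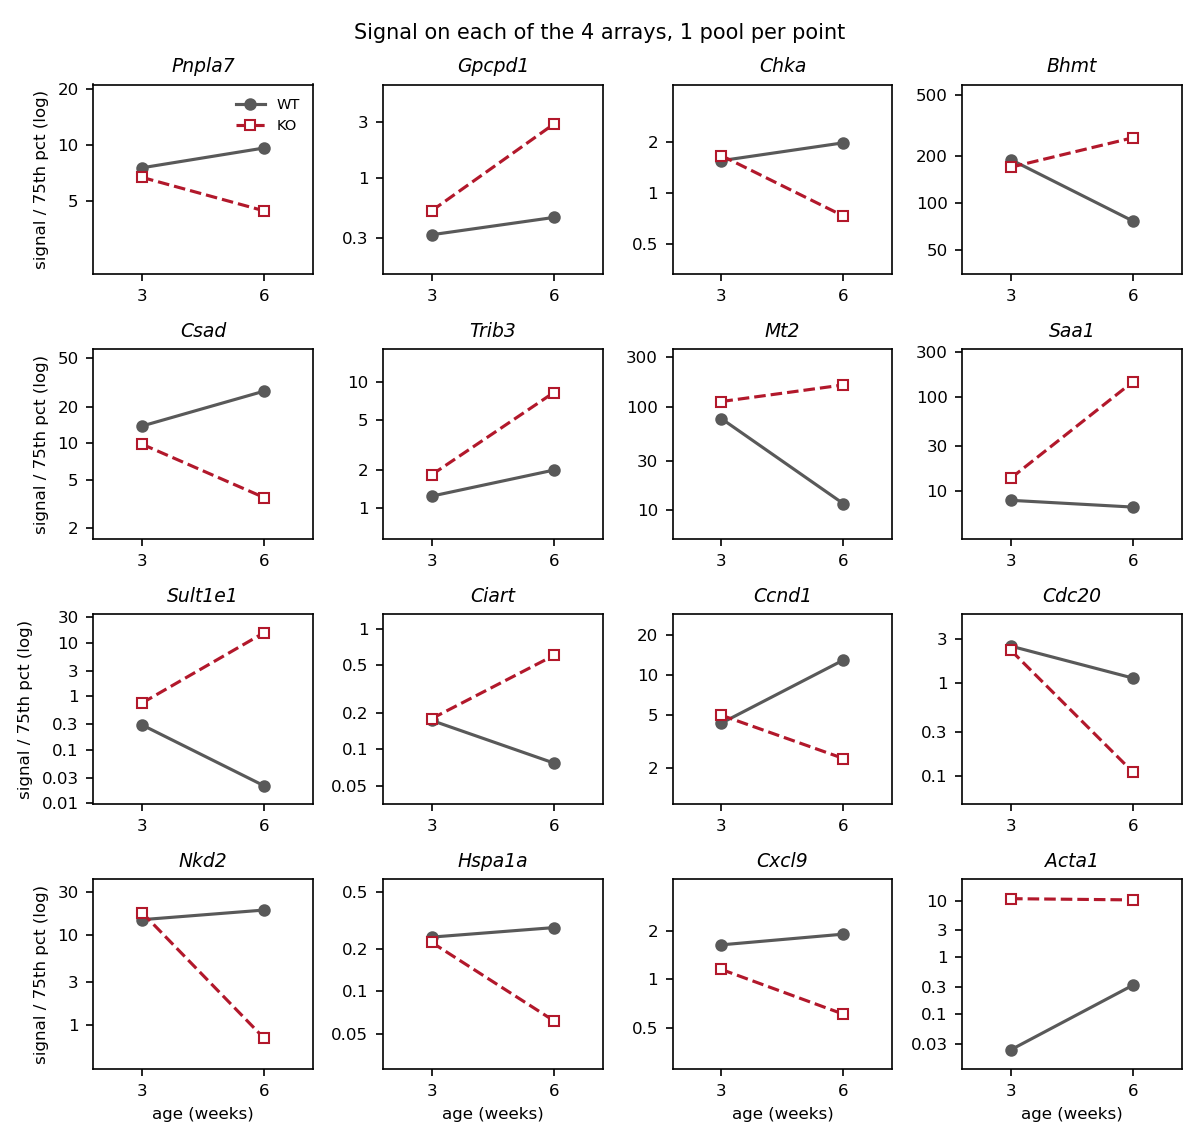
Signal of 16 genes, divided by the 75th percentile of the array and on log axes, at 3 and 6 weeks; grey circles are WT and red squares KO, with 1 pool a point and no error bar. For Nkd2, Cdc20, Saa1 and Gpcpd1 the KO array at 6 weeks is the one apart, while for Mt2 and Bhmt the WT array at 6 weeks lies below the other 3.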

How the data were processed

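Liver RNA from pools of 5 mice was labelled with Cy3 and read on Agilent 1-colour arrays, with all 4 arrays on 1 slide, so that slide and genotype are not confounded. Per the file headers, Feature Extraction 11.5.1.1 turned each spot's intensity into a background-corrected processed signal, and the deposited flags (outlier, well above background, saturated) are other 0 or 1 values of the same files. The authors' value table holds a ratio, the processed signal over the 75th percentile of the array, as checked against the deposited intensities, with column medians of 0.0778 in WT and 0.0798 in KO at 6 weeks.

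Spots flagged as outliers and control spots were left out, each signal was divided by the array's 75th percentile (1229.67 in WT, 1123.76 in KO) and replicate spots were averaged on the log2 scale. A gene took its brightest probe by the mean over all 4 arrays. Of 39429 probes, 27508 were named by accession, 3544 by symbol, 404 by synonym (RefSeq, GRCm38.p6) and 7973 kept the file's name. A gene above background on 1 array got a bound, the bright signal against the higher of the dim probe's own signal and the lowest signal well above background. The call is 2-fold. With 1 array a group no test was possible. The scaling and the 2-fold call alone were run on simulated signals with spot error and no difference between pools, so that run cannot speak for the calls made here. Python 3.11.15, pandas 2.3.3, R 4.3.3 and limma 3.58.1 were used.

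The members of the comparison and all gene lists were chosen with earlier results of these data known. Named genes are the choline, phosphatidylcholine and methionine lists, members of other lists past 2-fold (at most 8, else the 6 of largest ratio), and the 20 highest and 20 lowest genes with a symbol, over all genes and over those above the 75th percentile. Members named inside 2-fold, the GT-run probes and the ranking by 3-week level were chosen after values were seen. Some list members counted here are not reported by name.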

Additional observations from a re-analysis of the deposited data

Results flagged for a closer look

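Of the genes past 2-fold at 6 weeks, 11 higher and 16 lower ones were past 2-fold the other way at 3 weeks. Smtnl1, at 4.51 and -2.88, Col4a3, at -1.57 and 3.92, and Pgk2, at 2.97 and -2.71, had large log2 ratios at 3 and 6 weeks, with no signal above 0.612, and were picked after their values were seen. Among genes of the lists and rankings there were 3. Hsd3b5, a male-biased steroid enzyme, had a log2 ratio of 1.97 at 3 weeks (0.129 in WT, 0.504 in KO) and -1.16 at 6 weeks (0.163 and 0.0726), where the call was lost under normexp with quantile normalization. Otulinl had 2.12 at 3 weeks (0.0958 and 0.418) and -2.99 at 6 weeks (0.517 and 0.0652). Ppp1r3g, which targets a phosphatase to glycogen, had 1.37 at 3 weeks (0.795 and 2.05) and -1.12 at 6 weeks (2.27 and 1.04). The neutrophil marker list had a median of -0.43 at 3 weeks and 0.34 at 6 weeks. With 1 pool per age and genotype, the difference between ages was not tested for any of these.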

How the results depend on the processing

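No named ratio past 2-fold changed sign under the alternatives run, while 27 of 585 list medians did, in 12 lists whose reported medians were at most 0.15 in size. The counts of 803 higher and 614 lower genes moved by more than 1.5 times under normexp with quantile normalization (401 and 377), with no filter on dim probes (2197 and 1641), with bounds for genes above background on 1 array (1388 and 970), at a 1.5-fold threshold (1830 and 1678), at a 3-fold threshold (265 and 200) and, added after seeing the data, for genes above the 75th percentile (254 and 166). They stayed within 1.5 times with median scaling (768 and 642), quantile normalization (706 and 659), all 4 arrays above background (699 and 573), the mean of all probes (820 and 611), outlier spots kept (825 and 628) and the authors' table (804 and 612), and, both added after seeing the data, without the muscle lists (772 and 614) and without GT-run probes (722 and 614). Quantile normalization took the median of all genes from 0.05 to 0.00 and kept 243 of 258 named calls, median scaling 256, the mean of all probes 241 and normexp 219. Of genes named in the text, quantile normalization put Ahcy, Col1a1, Gpt, Igfbp1, Lrg1, Mat1a, Mvk and Prodh inside 2-fold, median scaling Gpt, and the mean of all probes Dlk1, Folr1, H19, Mvk, Per1, Rad51b, Rbm3, Slc19a1 and Uhrf1. Normexp put the most named calls inside 2-fold, among them Ahcy, Asl, Col1a1, Dlk1, Folr1, Gpt, Hsd3b5, Igfbp1, Lrg1, Mat1a, Mgst2, Mvk, Prodh, Rhbg and Tff3. Genes near the floor are limited by signal over background, and no value carries the spread between animals. No paired analysis was possible because each genotype had 1 pool at this age.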

Other observations

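Tubulin genes, grouped after their values were seen, were mostly lower in KO at 6 weeks. Of 15 tubulins 13 were measured, 10 lay below 0 and 2 were at least 2-fold lower, with a median log2 ratio of -0.81 against -0.05 at 3 weeks. Tubb2a had a signal of 38.1 in WT and 10.1 in KO, and Tuba1b 33.2 and 15.1. Actb, a cytoskeletal gene often used as a reference, was at -0.26.

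Cirbp and Rbm3, RNA-binding proteins that mild cold induces, were higher in KO. Cirbp had a signal of 1.60 in WT and 5.58 in KO, with a second probe at 0.92. Rbm3 had 4.05 and 13.2, with a second probe at 1.81, and was inside 2-fold with the mean of all probes.

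Of the 137 GT-run probes 133 had a log2 ratio above 0 at 6 weeks, and their median at 3 weeks was 0.35. Of the 68 AC-run probes 13 were above 0, with a median of -0.32 at 3 weeks. Ehmt1, the neighbour of Pnpla7, had 1.26 through a GT-run probe and 0.14 through a second probe. The ribosomal RNA probe Rs5-8s1 had a signal of 60.2 in WT and 16.5 in KO, while Rn18s had 194 and 220.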
